A study of Mus musculus with 6 samples.

Results

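The retinoic acid genes described here were 9 mouse genes that make, remove, bind or answer to retinoic acid: *Aldh1a1*, *Aldh1a2*, *Cyp26b1*, *Crabp1*, *Crabp2*, *Rara*, *Rarb*, *Stra8* and *Rec8*. They were taken by name and not by a threshold on measured values, but with earlier results of these data known. Their probes were all those, other than controls, whose accession belongs to 1 of the 9 genes. This gave 10 probes, 2 of them for *Rec8*, and the genes were 9 of the 16535 named genes with a probe on the array. All 10 probes were well above background on all 6 arrays and all entered the test.

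In E14.5 male gonads without functional *Nanos2*, *Stra8* was on average 4.33-fold higher than in *Nanos2*+/- gonads, and 7.60-fold higher in *Nanos2*-/- gonads carrying the *Nanos2*-ΔN10 transgene. Leaving out single arrays moved both *Stra8* values by over 1.5-fold. *Rec8* was 1.37-fold and 2.13-fold higher in the same comparisons. The members that make and remove retinoic acid, *Aldh1a1*, *Aldh1a2* and *Cyp26b1*, had log2 differences from -0.22 to 0.11 in all comparisons under the main processing. *Crabp1* was lower in both *Nanos2*-/- genotypes than in *Nanos2*+/- gonads, with log2 differences of -0.57 and -0.55. No member passed the limma test across all probes at an adjusted p of 0.05 in any of the 3 comparisons.

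Retinoic acid is made from retinol by oxidation to retinal and then, by retinaldehyde dehydrogenases, to the acid, and it acts through nuclear receptors that bind DNA with a retinoid X receptor partner. In the fetal ovary it is known to precede meiotic entry of germ cells, with induction of *Stra8*, whereas in the fetal testis the enzyme CYP26B1, made by somatic cells, degrades it. NANOS2, an RNA-binding protein of male germ cells, is known to repress meiotic transcripts from the stage at which this degradation declines.

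Total RNA of whole male gonads had been hybridized with 1 dye to Agilent whole mouse genome arrays, 2 per genotype and described as biological duplicates, all at E14.5 on a mixed ICR and N2 background. The controls were *Nanos2*+/-, so that every group lacked at least 1 functional copy of *Nanos2* and no wild-type gonad was among them. The other groups were *Nanos2*-/-, and *Nanos2*-/- with a 3×FLAG-tagged *Nanos2*-ΔN10 transgene under the *Nanos2* enhancer (*Nanos2*-/- Tg+), whose product lacks the first 10 amino acids, which the study removed to break its contact with the CCR4-NOT deadenylase complex. The comparisons ask which differences of *Nanos2*-/- gonads are still there with this truncated protein, and the labels do not say from which transgenic line the gonads came or how many gonads made up an array. Values below are log2 of the scanner's processed signal after each array was scaled to a common median. Because the RNA came from whole gonads, fewer cells of a type and less RNA per cell cannot be told apart.

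The *Nanos2* probe gave a scaled signal of 686 and 1759 in *Nanos2*+/- gonads and 9981 and 19513 in *Nanos2*-/- Tg+ gonads. In *Nanos2*-/- gonads neither array had it well above background, and its value was the floor of 5. The controls occupied 1 slide and both *Nanos2*-/- genotypes a different one. Genotype and slide therefore cannot be told apart where *Nanos2*+/- is compared, whereas *Nanos2*-/- and *Nanos2*-/- Tg+ were compared within 1 slide. With 2 arrays against 2, an exact two-sided permutation test of a single value cannot go below p = 0.333. Markers of the gonad's cells were present: 6 of 6 germ cell markers (*Ddx4*, *Dazl*, *Dnd1*, *Mael*, *Pou5f1* and *Kit*), 7 of 7 Sertoli cell markers and 4 of 4 fetal Leydig cell markers with a probe entered the test. The summed signal of the germ cell markers was 67181 and 76030 in *Nanos2*+/-, 53122 and 65506 in *Nanos2*-/- and 67872 and 69694 in *Nanos2*-/- Tg+ gonads. Of 7 mesonephric markers 5 entered the test, and *Pax2* and *Calb1* were not well above background. Of 5 ovarian somatic markers 4 entered the test, and *Foxl2* was not well above background. The summed signal of 5 erythroid genes was lowest in *Nanos2*-/- (154163 and 139811), higher in *Nanos2*+/- (170041 and 189474) and highest in *Nanos2*-/- Tg+ gonads (201631 and 208272). Most of this sum was *Hba-a1*, with 156726 of 170041 on the first *Nanos2*+/- array. *Hbb-y* did not follow its order, at 8242 and 26394 in *Nanos2*+/-, 11255 and 14675 in *Nanos2*-/- and 7608 and 24384 in *Nanos2*-/- Tg+ gonads. The part of erythroid signal in the differences below was not tested.

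For the comparison of *Nanos2*-/- with *Nanos2*+/-, 18 of 26712 probes, or 0.0674%, were called, that is, had a limma adjusted p under 0.05 and a change of at least 2-fold, and 0 of the 10 member probes were among them, the lowest adjusted p of a member being 0.330. An unadjusted limma p under 0.05 was reached by 2 of 10 member probes, against 9.08% of all probes. The arrays of both genotypes did not overlap for 4 of the 9 genes (*Stra8* and *Rara* higher, *Crabp1* and *Aldh1a1* lower), against 36% of all probes, so 4 of 9 is near the share over the whole array.

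Against the same *Nanos2*+/- arrays, *Nanos2*-/- Tg+ gonads had 28 probes called, 0.105% of all, again with 0 of the 10 member probes and a lowest member adjusted p of 0.138. Here 4 of 10 member probes had an unadjusted limma p under 0.05, against 11.6% of all probes. They were for 3 of the 9 genes, *Stra8*, *Crabp1* and *Rec8*, the last by both of its probes. Of the 9 genes 6 did not overlap, against 38.9% of all probes. Because the members were chosen with earlier results of these data known, these shares are a description and not a test. Between *Nanos2*-/- Tg+ and *Nanos2*-/- gonads, 5 probes, or 0.0187%, were called, 0 of them members, and the adjusted p of every member was 1. No member probe had an unadjusted p under 0.05 in this comparison, against 2.74% of all probes. Of the 9 genes 4 did not overlap, all of them higher with the transgene, against 31.4% of all probes. Over the whole array, too, more of the non-overlapping probes were higher with the transgene (5350) than lower (3033). The t-test of the study's own procedure, at p under 0.05 with a 2-fold change, passed 0.573%, 0.876% and 0.15% of all probes in the comparisons as ordered here, and of the member probes only the brighter *Rec8* probe, in *Nanos2*-/- Tg+ against *Nanos2*+/-. After Benjamini-Hochberg adjustment this t-test passed 0 probes in each comparison.

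**Figure D1:**
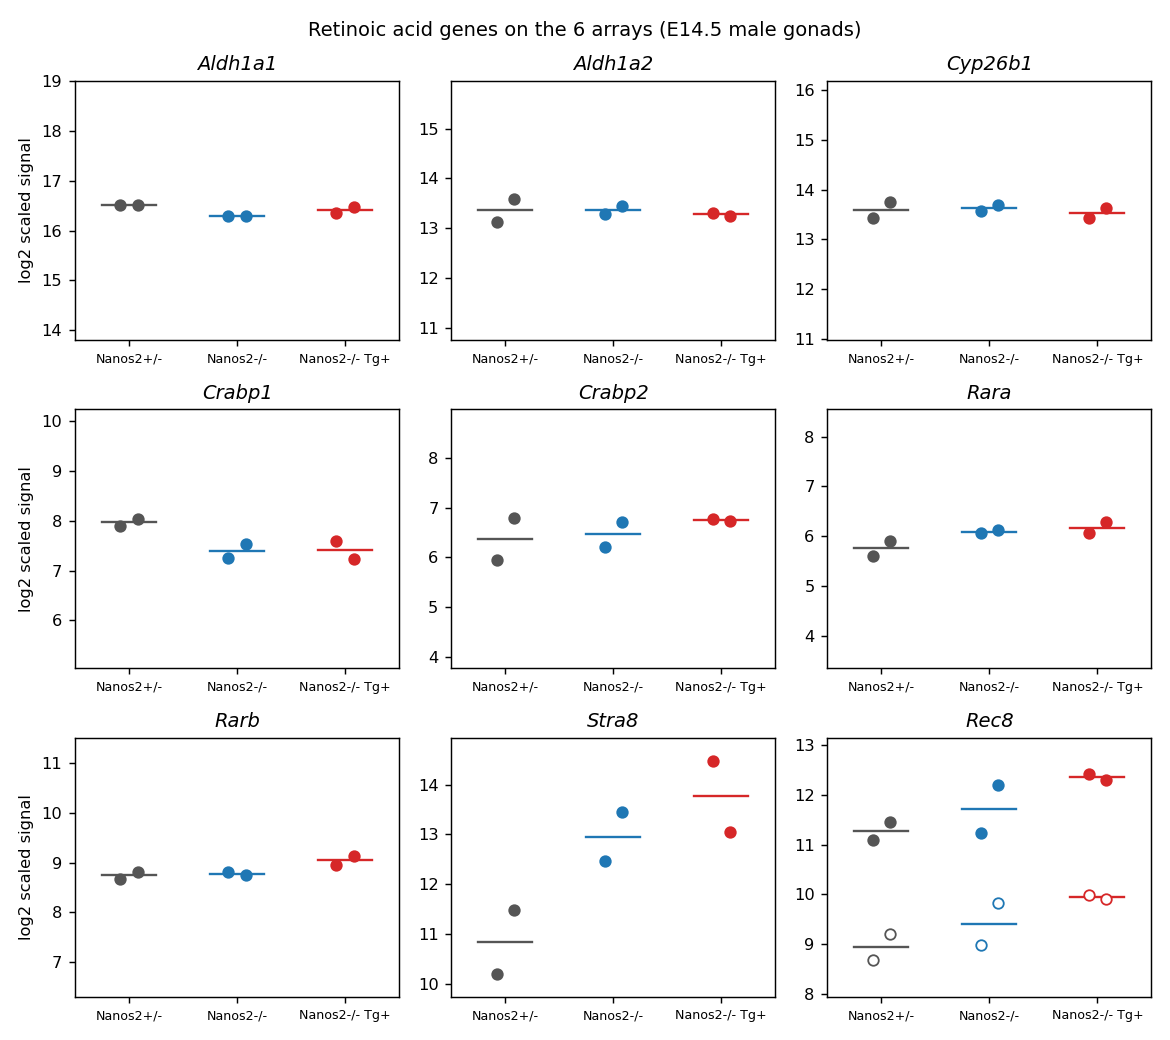
Log2 scaled signal of the 9 genes on each of the 6 arrays, by genotype. Each point is 1 array and each short line the mean of 2 arrays, open points being the dimmer *Rec8* probe, and every panel spans the same number of log2 units. The *Stra8* points of *Nanos2*+/- lie below those of both other genotypes, while the points for *Aldh1a2* and *Cyp26b1* of all genotypes overlap.

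*Aldh1a1* and *Aldh1a2* encode retinaldehyde dehydrogenases, which carry out the last step of retinoic acid synthesis. *Aldh1a1* (chromosome 19, 20492583 to 20643463 in GRCm38.p6) had log2 signals of 16.51 and 16.51 in *Nanos2*+/-, 16.29 and 16.30 in *Nanos2*-/- and 16.35 and 16.47 in *Nanos2*-/- Tg+ gonads. The 3 genotypes did not overlap, with *Nanos2*+/- highest and *Nanos2*-/- lowest, but the spacing was small. The difference of *Nanos2*-/- from *Nanos2*+/- was -0.22 ± 0.18 (SE, 2 arrays per genotype, adjusted p = 0.783 by limma), and it took the other sign, 0.84, when the background was corrected by normexp, a setting that moved the median of all probes to 0.56. The pair of *Nanos2*+/- arrays differed by 0.000788 on this probe, closer than 99.9% of all probes, and the pair of *Nanos2*-/- arrays by 0.00513, closer than 98.6%. A t-test on this gene's own spread therefore gives a p of 0.000143 that rests on the closeness of both pairs, with an adjusted value of 0.552.

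*Aldh1a2* (chromosome 9, 71215789 to 71296243) read 13.13 and 13.59 in *Nanos2*+/-, 13.28 and 13.45 in *Nanos2*-/- and 13.31 and 13.26 in *Nanos2*-/- Tg+ gonads. The *Nanos2*+/- arrays enclosed all 4 others. Its difference from *Nanos2*+/- was 0.01 in *Nanos2*-/-, with a 95% interval of -0.49 to 0.51, and -0.07 in *Nanos2*-/- Tg+ gonads, with an interval of -0.57 to 0.43.

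*Cyp26b1* (chromosome 6, 84571414 to 84593908), whose product oxidizes retinoic acid to inactive forms, read 13.43 and 13.74 in *Nanos2*+/-, 13.57 and 13.69 in *Nanos2*-/- and 13.42 and 13.62 in *Nanos2*-/- Tg+ gonads. All genotypes overlapped, and the spread between the *Nanos2*+/- arrays, 0.31, was larger than any difference between genotype means. Its difference was 0.04 ± 0.20 (SE, adjusted p = 0.972) in *Nanos2*-/- against *Nanos2*+/- and -0.06 ± 0.20 (SE, adjusted p = 0.941) in *Nanos2*-/- Tg+ against *Nanos2*+/- gonads. Between both *Nanos2*-/- genotypes it was -0.11, with a 95% interval of -0.58 to 0.36.

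*Crabp1* and *Crabp2* encode cellular retinoic acid-binding proteins of the cytoplasm, of which CRABP2 is known to pass retinoic acid on to its receptors. *Crabp1* (chromosome 9, 54764748 to 54773110) read 7.90 and 8.03 in *Nanos2*+/-, 7.26 and 7.53 in *Nanos2*-/- and 7.60 and 7.24 in *Nanos2*-/- Tg+ gonads. Both *Nanos2*+/- arrays were above all 4 others, and both *Nanos2*-/- genotypes covered the same range. The difference from *Nanos2*+/- was -0.57 ± 0.21 (SE, adjusted p = 0.470) in *Nanos2*-/- gonads, a 1.49-fold lower signal. It was -0.55 ± 0.21 (SE, adjusted p = 0.377) in *Nanos2*-/- Tg+ gonads, from the same *Nanos2*+/- arrays. Under normexp both differences shrank to -0.04 and -0.07, and relative to the median of all probes there they were -0.60 in each comparison. Between both *Nanos2*-/- genotypes the difference was 0.03, with a 95% interval of -0.47 to 0.52.

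*Crabp2* (chromosome 3, 87948693 to 87953372) read 5.95 and 6.79 in *Nanos2*+/-, 6.21 and 6.71 in *Nanos2*-/- and 6.78 and 6.73 in *Nanos2*-/- Tg+ gonads. This was among the dimmer member signals, and the *Nanos2*+/- arrays lay 0.84 apart, a gap that 7.23% of all probes exceeded. *Nanos2*+/- overlapped with both other genotypes. Its differences were 0.09 in *Nanos2*-/- and 0.38 in *Nanos2*-/- Tg+ against *Nanos2*+/- gonads, each with a standard error of 0.30, and without the first *Nanos2*+/- array they were -0.33 and -0.04.

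*Rara* and *Rarb* encode the retinoic acid receptors alpha and beta, and *Rarb* is itself a well known target of retinoic acid. *Rara* (chromosome 11, 98927800 to 98974942) was dim, at 5.61 and 5.91 in *Nanos2*+/-, 6.06 and 6.12 in *Nanos2*-/- and 6.05 and 6.28 in *Nanos2*-/- Tg+ gonads. Both *Nanos2*+/- arrays were below all 4 others. The difference from *Nanos2*+/- was 0.33 ± 0.20 (SE, adjusted p = 0.703) in *Nanos2*-/- and 0.41 ± 0.20 (SE, adjusted p = 0.489) in *Nanos2*-/- Tg+ gonads. Under normexp it was 0.07 and 0.11, and relative to the median of all probes there it turned negative, at -0.49 and -0.41.

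*Rarb* (chromosome 14, 16430839 to 17082331) was measured by 10 spots on each array, 1 of which was left out as an outlier on the first *Nanos2*+/- array. Its mean log2 signals were 8.67 and 8.82 in *Nanos2*+/-, 8.80 and 8.75 in *Nanos2*-/- and 8.95 and 9.14 in *Nanos2*-/- Tg+ gonads. Within an array the spots had an SD of 0.04 to 0.09. *Nanos2*+/- and *Nanos2*-/- overlapped, and both *Nanos2*-/- Tg+ arrays were above the other 4. The difference of *Nanos2*-/- Tg+ was 0.30 ± 0.18 (SE, adjusted p = 0.602) from *Nanos2*+/- and 0.27 ± 0.18 (SE, adjusted p = 1) from *Nanos2*-/- gonads, while *Nanos2*-/- differed from *Nanos2*+/- by 0.03.

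Retinoic acid receptors bind short half-sites in DNA, often as a pair in direct repeat. The letters AGGTCA, their variant AGTTCA, the variant GGGTCA and the variant GGTTCA were searched on both strands of the RefSeq promoter windows of GRCm38.p6, from 250 bases before to 50 bases after each listed start site. Windows were found for 8 of the 9 genes, *Crabp2* being the other, and 5 of their 12 windows held at least 1 half-site, against 43.7% of all 32851 windows. Half-sites occurred in windows of *Aldh1a1*, *Rara*, *Rarb* and *Stra8*, and the windows of *Aldh1a2*, *Cyp26b1*, *Crabp1* and *Rec8* held none of these letters. Only the *Rarb* window held 2 half-sites as a direct repeat with a spacer of 5 bases, which 0.0974% of all windows do, and no member held one with a spacer of 2 bases (0.268% of all windows). No half-sites overlapped each other in the windows of the members. Windows with 2 or more half-sites, as in *Stra8*, *Rarb* and 1 window of *Rara*, were 13.1% of all windows. The 250 bases before the start are shown for *Rarb*, which has the repeat, and for *Stra8*, the member that differed most between genotypes and has AGGTCA at 2 places. They are written on the strand of the gene with half-sites in capitals, *Rarb* from chr14:16575477-16575726 on the minus strand and *Stra8* from chr6:34920698-34920947 on the plus strand, and both genes have records that reach further upstream. These matches describe the sequence and do not show binding.
Rarb: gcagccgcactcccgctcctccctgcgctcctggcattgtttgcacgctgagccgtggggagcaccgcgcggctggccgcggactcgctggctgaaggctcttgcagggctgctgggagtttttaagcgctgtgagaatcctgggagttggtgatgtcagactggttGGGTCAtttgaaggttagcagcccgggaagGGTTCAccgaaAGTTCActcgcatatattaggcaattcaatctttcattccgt
Stra8: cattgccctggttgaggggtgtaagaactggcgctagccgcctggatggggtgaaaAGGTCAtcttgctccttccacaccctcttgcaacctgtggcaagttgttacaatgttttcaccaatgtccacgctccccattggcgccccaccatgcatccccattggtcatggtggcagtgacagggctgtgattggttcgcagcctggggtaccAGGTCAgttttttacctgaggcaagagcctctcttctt

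*Stra8* (chromosome 6, 34920163 to 34939344) is a germ cell gene needed for meiotic entry and takes its name from its stimulation by retinoic acid. Its log2 signal was 10.19 and 11.48 in *Nanos2*+/-, 12.46 and 13.44 in *Nanos2*-/- and 14.48 and 13.04 in *Nanos2*-/- Tg+ gonads, which is 1169 and 2860, 5631 and 11140, and 22903 and 8435 in scaled signal. Both *Nanos2*+/- arrays were below all others by at least 0.98 on the log2 scale, and both *Nanos2*-/- genotypes overlapped, since the second *Nanos2*-/- Tg+ array lay between both *Nanos2*-/- arrays. The difference of *Nanos2*-/- from *Nanos2*+/- was 2.11 ± 0.58 (SE, adjusted p = 0.330), the 70th in size among 26712 probes. For *Nanos2*-/- Tg+ against *Nanos2*+/- it was 2.93 ± 0.58 (SE, adjusted p = 0.138), the 23rd in size. Without the first *Nanos2*+/- array these differences were 1.47 and 2.28, and without the second 2.76 and 3.57. Without the first *Nanos2*-/- Tg+ array the difference of *Nanos2*-/- Tg+ was 2.21, and without the second 3.65.

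Replicate arrays differed more for *Stra8* than for nearly all probes. They lay 1.29 apart in *Nanos2*+/-, 0.98 in *Nanos2*-/- and 1.44 in *Nanos2*-/- Tg+ gonads on the log2 scale, and only 2.13%, 2.25% and 1.06% of all probes had a larger gap in the same genotype. The direction of the gap was not shared, the first array being the lower in *Nanos2*+/- and *Nanos2*-/- and the higher in *Nanos2*-/- Tg+ gonads. Between both *Nanos2*-/- genotypes the difference of 0.81 had a 95% interval of -0.55 to 2.17. It was 0.09 without the first *Nanos2*-/- Tg+ array and 1.53 without the second, so its size was set by single arrays.

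*Rec8* (chromosome 14, 55618002 to 55625395) encodes the meiotic kleisin subunit of cohesin, which holds sister chromatids together, and responds to retinoic acid in fetal germ cells. The brighter of its probes read 11.09 and 11.45 in *Nanos2*+/-, 11.23 and 12.21 in *Nanos2*-/- and 12.41 and 12.30 in *Nanos2*-/- Tg+ gonads. The dimmer probe read 8.68 and 9.21, 8.98 and 9.83, and 9.98 and 9.91 in the same order. Both probes put the 6 arrays in the same order. The first *Nanos2*-/- array lay within the *Nanos2*+/- range, the second was clearly above it, and both *Nanos2*-/- Tg+ arrays were above all 4 others.

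For *Nanos2*-/- against *Nanos2*+/-, the *Rec8* difference was 0.45 ± 0.32 (SE, adjusted p = 0.752) on the brighter probe and 0.46 ± 0.31 (SE, adjusted p = 0.736) on the dimmer one. Without the second *Nanos2*-/- array the brighter probe gave -0.03. For *Nanos2*-/- Tg+ against *Nanos2*+/- the differences were 1.09 ± 0.32 (SE, adjusted p = 0.251) and 1.00 ± 0.31 (SE, adjusted p = 0.271). Both probes thus placed the transgenic gonads about 2-fold above the controls, and with each array left out in turn the brighter probe's difference stayed between 0.91 and 1.27. Within the slide that *Nanos2*-/- and *Nanos2*-/- Tg+ gonads shared, the difference was 0.64 (95% interval -0.11 to 1.38) and 0.54 (95% interval -0.18 to 1.26).

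**Figure D2:**
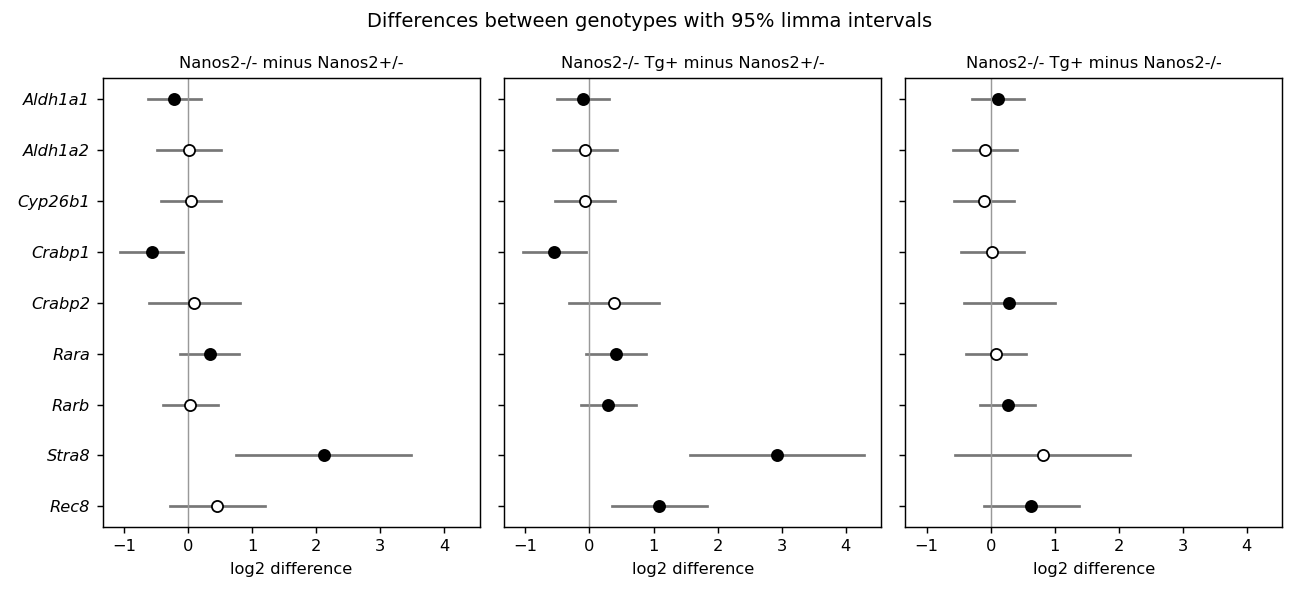
Difference between genotypes for each of the 9 genes (brighter probe for *Rec8*) in log2 units, with 95% intervals from limma. Filled points are genes whose 2 arrays of one genotype did not overlap with the 2 of the other, open points those that overlapped. The intervals of *Stra8* and *Crabp1* exclude 0 in both comparisons with *Nanos2*+/-, that of *Rec8* in the comparison of *Nanos2*-/- Tg+ with *Nanos2*+/- only, and no member reached an adjusted p under 0.05.

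The median difference of the 9 genes was 0.04 for *Nanos2*-/- against *Nanos2*+/-, 0.30 for *Nanos2*-/- Tg+ against *Nanos2*+/- and 0.11 for *Nanos2*-/- Tg+ against *Nanos2*-/- gonads. Over all probes tested the median was -0.04, -0.01 and 0.03. *Stra8* alone, of the 9, differed by at least 2-fold in *Nanos2*-/- against *Nanos2*+/- gonads, joined by *Rec8* in *Nanos2*-/- Tg+ gonads, and no member differed by 2-fold between both *Nanos2*-/- genotypes. Apart from these germ cell genes, the largest difference of a member was 0.57 in size, for *Crabp1*.

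A further 34 genes of the retinoic acid pathway were listed by role, 32 had a probe and 27 entered the test, the receptors' coregulators and targets known from other tissues included. In none of the 3 comparisons was one of them called. For *Nanos2*-/- against *Nanos2*+/- gonads 13 were higher and 14 lower, with a median difference of -0.06, and 1 of 27 had an unadjusted p under 0.05, against 9.08% of all probes tested. For *Nanos2*-/- Tg+ against *Nanos2*+/- gonads 17 were higher and 10 lower, with a median of 0.01, and 4 of 27, all higher, had an unadjusted p under 0.05, against 11.6% of all probes tested. Of these 4, *Cyp26a1* was well above background on 1 of the 2 *Nanos2*+/- arrays only. It entered the test through the *Nanos2*-/- genotypes and is counted as higher in both comparisons with *Nanos2*+/-. For *Nanos2*-/- Tg+ against *Nanos2*-/- gonads 18 were higher and 9 lower, with a median of 0.07, and 0 had an unadjusted p under 0.05, against 2.74% of all probes tested.

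Of 6 genes for uptake and storage of retinoids, *Stra6*, the cell surface receptor for retinol-binding protein, read 7.83 and 7.95 in *Nanos2*+/-, 8.23 and 8.38 in *Nanos2*-/- and 8.27 and 8.49 in *Nanos2*-/- Tg+ gonads. Both *Nanos2*+/- arrays were below the others, and the differences from *Nanos2*+/- were 0.41 (adjusted p = 0.587) and 0.49 (adjusted p = 0.381). *Rbp4*, the retinol carrier of plasma, was lower against *Nanos2*+/- by a log2 difference of -0.38 (adjusted p = 0.599) in *Nanos2*-/- and -0.39 (adjusted p = 0.459) in *Nanos2*-/- Tg+ gonads. *Rbp7*, a cellular retinol carrier, had differences of -0.51 and -0.30 from *Nanos2*+/-, and *Lrat*, which esterifies retinol for storage, 0.11 and -0.04. *Dgat1*, an acyltransferase, had differences of -0.07 and -0.42 from *Nanos2*+/- gonads.

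Of 10 genes for oxidation and reduction of retinoids, 7 entered the test, and *Dhrs9*, *Adh7* and *Bco1* were not well above background. *Rdh10*, which makes retinal from retinol in the embryo, read 7.32 and 7.79 in *Nanos2*+/-, 7.61 and 7.93 in *Nanos2*-/- and 8.09 and 8.43 in *Nanos2*-/- Tg+ gonads. Both *Nanos2*-/- Tg+ arrays were above the other 4, while *Nanos2*+/- and *Nanos2*-/- overlapped. Its difference was 0.71 ± 0.24 (SE, adjusted p = 0.313) in *Nanos2*-/- Tg+ against *Nanos2*+/- and 0.49 ± 0.24 (SE, adjusted p = 1) against *Nanos2*-/- gonads. *Dhrs3*, which reduces retinal back to retinol, had differences of 0.03, 0.22 and 0.19 in the 3 comparisons. *Rdh12*, *Dhrs4* and *Adh1*, other oxidoreductases, had differences from -0.29 to 0.25.

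Among the other receptors *Rarg*, the gamma receptor, read 7.42 and 7.82 in *Nanos2*+/-, 8.08 and 8.43 in *Nanos2*-/- and 8.59 and 8.35 in *Nanos2*-/- Tg+ gonads. Both *Nanos2*+/- arrays lay below the other 4, and both *Nanos2*-/- genotypes overlapped. Its difference from *Nanos2*+/- was 0.64 ± 0.23 (SE, adjusted p = 0.457) in *Nanos2*-/- and 0.85 ± 0.23 (SE, adjusted p = 0.211) in *Nanos2*-/- Tg+ gonads. The retinoid X receptors *Rxra*, *Rxrb* and *Rxrg* had differences between -0.22 and 0.33 in all 3 comparisons. Among 6 coregulators the differences ran from -0.30 for *Ncor1*, a corepressor, to 0.29 for *Med1*, a Mediator subunit, both in *Nanos2*-/- Tg+ against *Nanos2*+/- gonads. The coactivators *Ncoa1*, *Ncoa2* and *Ncoa3* lay between, from -0.20 to 0.27.

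*Cyp26a1*, another retinoic acid hydroxylase and a sensitive target of retinoic acid in many embryonic tissues, was near background, at log2 signals of 3.71 and 4.62 in *Nanos2*+/-, 5.17 and 5.22 in *Nanos2*-/- and 6.85 and 4.85 in *Nanos2*-/- Tg+ gonads. The first *Nanos2*-/- Tg+ array was far above the rest, as it was for *Stra8*. *Cyp26a1* was well above background on 1 of the 2 *Nanos2*+/- arrays and on all 4 others, so that it entered the test through the *Nanos2*-/- genotypes and its differences from *Nanos2*+/- are not given. Between both *Nanos2*-/- genotypes the difference was 0.66 (adjusted p = 1). Of the targets known from other tissues *Hoxb1* and *Cdx1* were not well above background, and *Tgm2*, *Meis1* and *Meis2* had differences from -0.18 to 0.38.

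**Figure D3:**
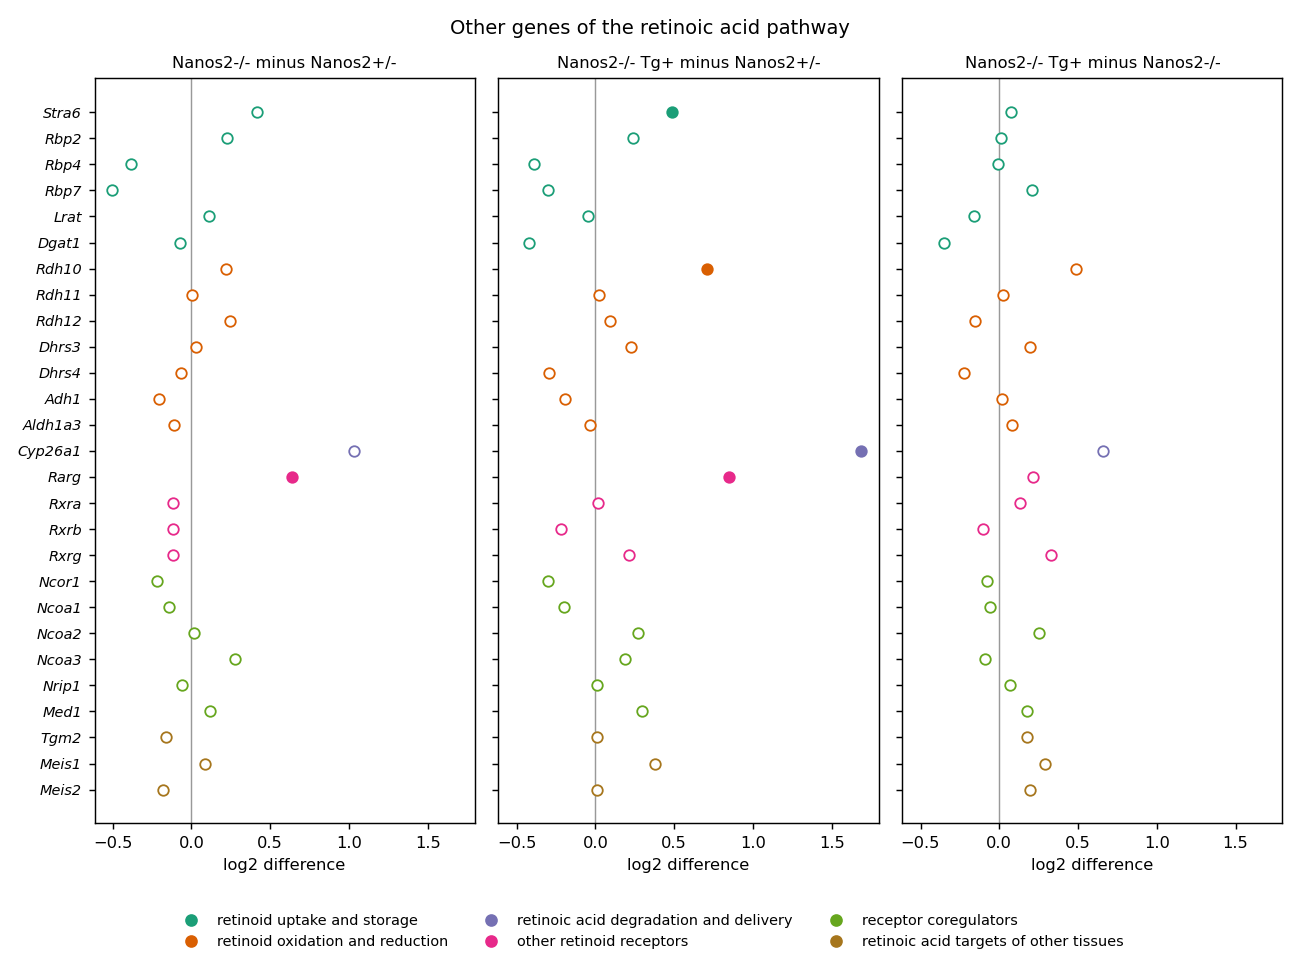
Log2 difference of the 27 further genes of the retinoic acid pathway that entered the test, in the 3 comparisons, coloured by role. Each point is the difference between the means of 2 arrays per genotype, filled where the unadjusted limma p is under 0.05. Filled points are 1 in *Nanos2*-/- minus *Nanos2*+/-, 4 in *Nanos2*-/- Tg+ minus *Nanos2*+/- and 0 in *Nanos2*-/- Tg+ minus *Nanos2*-/-, and no gene reached an adjusted p under 0.05. The points of *Cyp26a1* against *Nanos2*+/- rest on 1 *Nanos2*+/- array well above background.

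Genes of meiotic prophase and germ cell competence, listed beside *Stra8* and *Rec8*, were 14, of which 12 had a probe and were tested, and none was called in any comparison. *Taf7l*, a germ cell TFIID subunit, read 11.04 and 11.72 in *Nanos2*+/-, 12.35 and 12.58 in *Nanos2*-/- and 13.16 and 12.37 in *Nanos2*-/- Tg+ gonads, so that both *Nanos2*+/- arrays were below the rest. *Sycp1*, of the synaptonemal complex, read 9.66 and 10.33, 11.01 and 11.24, and 11.17 and 10.98 in the same order, again with *Nanos2*+/- below. Their differences in *Nanos2*-/- against *Nanos2*+/- gonads were 1.08 (adjusted p = 0.363) and 1.13 (adjusted p = 0.252). *Sycp3*, another protein of that complex, differed by 0.20 and 0.67 from *Nanos2*+/- in *Nanos2*-/- and *Nanos2*-/- Tg+ gonads. *Dmc1*, the meiotic recombinase, was at 4.33 or less on 5 arrays and at 6.71 on the first *Nanos2*-/- Tg+ array, and was not well above background on 1 of the 2 *Nanos2*-/- arrays. *Stag3*, which joins REC8 in meiotic cohesin, lay on the other side, at 12.16 and 12.22 in *Nanos2*+/-, 11.22 and 11.96 in *Nanos2*-/- and 11.24 and 11.21 in *Nanos2*-/- Tg+ gonads, and the difference of *Nanos2*-/- Tg+ was -0.96. *Msx2*, a homeobox gene of gonadal BMP signalling, had differences of -0.64 and -0.28 from *Nanos2*+/- gonads. Of the 12 genes, 7 were higher and 5 lower in *Nanos2*-/- and 8 higher and 4 lower in *Nanos2*-/- Tg+ than in *Nanos2*+/- gonads, with medians of 0.18 and 0.38.

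The patterns most like that of *Stra8* over the 6 arrays, among 17579 named probes well above background on every array, were those of *Zfp14*, *Neurog3*, *Xlr4b*, *Taf7l* and *Fam78a*, with Pearson's r of 0.997, 0.997, 0.996, 0.992 and 0.991. With 6 points that share genotype and slide such values are a description, and 271 of the 17579 probes had r above 0.9. Among the members *Rec8* had the highest r with *Stra8*, 0.87, followed by *Rara* with 0.79, and *Aldh1a1* and *Crabp1* the lowest, -0.67 and -0.56. *Cyp26b1* had an r of -0.00 with *Stra8* and of 0.81 with *Aldh1a2*. Its closest patterns were those of *Szrd1*, *Col9a3*, *Igdcc3*, *Prap1* and *Ddx3x*, all with r of 0.991 to 0.994, and for each of them, as for *Cyp26b1*, the first array was lower than the second in every genotype.

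**Figure D4:**
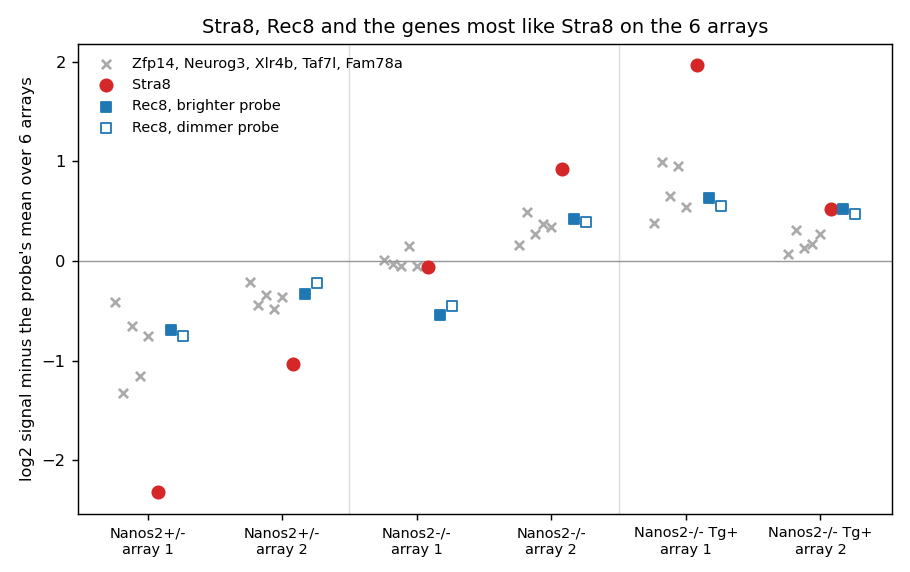
Log2 signal of *Stra8*, both *Rec8* probes and the 5 genes most like *Stra8* on each array, minus each probe's own mean over the 6 arrays. Each point is 1 probe on 1 array, and points of an array are set side by side. *Stra8* spans the widest range, its 2 arrays differ within every genotype, and *Rec8* on the first *Nanos2*-/- array lies with the *Nanos2*+/- arrays.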

How the data were processed

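The deposited scanner files, 1 per array, hold the intensity of 45018 spots, 1639 of them controls, which the authors had extracted with Agilent Feature Extraction (9.5 per the labels), background already subtracted, after labelling 200 ng of total RNA per array with 1 dye. The deposited value table holds the same intensity, within 0.497% for every spot. The study's methods scale each array to the 50th percentile and raise values under 5 to 5.

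Here each array's processed intensity, without control spots and outlier spots (54 to 82 per array), was scaled to a common median, raised to at least 5, taken to log2, and averaged over the spots of a probe. Between 64.1% and 66.7% of spots were well above background per array. A probe was tested if 1 or more genotypes had it well above background on both of their arrays, which left 26712, tested with limma 3.58.1 in R 4.3.3 (lmFit and eBayes, 6 arrays, no block, p-values adjusted over all probes by Benjamini-Hochberg). The number of arrays limits the precision. Probes were named through RefSeq accessions of GRCm38.p6 (23374 of 41174 probes matched), and a gene is given by its brightest probe. Genes outside the 9 were named where they were among the 3 largest changes of their list in a comparison, with all arrays of both genotypes well above background, or among the 5 most like *Stra8* or *Cyp26b1*, and *Nanos2* as the gene under study. Germ cell markers and genes not well above background were also named, the latter without a difference. The members and lists were chosen with earlier results of these data known. Of the listed pathway genes 3 are not reported here and were left out of the counts, whatever their values. The fit was tested on simulated data. Promoter windows were searched with Python 3.11.15 and pandas 2.3.3, and figures drawn with matplotlib 3.10.9.

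Alternatives were quantile normalization, scaling to the 75th percentile, a floor of 20, normexp correction of the background (offset 50, on the median signals, the mean signals not being used here), stricter and no filters on dim probes, outliers kept, the value table, a replicate block, only the 4 arrays compared, the study's t-test and leaving out each array.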

Additional observations from a re-analysis of the deposited data

How the results depend on the processing

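No member was called in any comparison under any alternative that uses limma, and the counts of all probes called varied more: 0 to 47 for *Nanos2*-/- against *Nanos2*+/-, 0 to 145 for *Nanos2*-/- Tg+ against *Nanos2*+/- and 0 to 29 between both *Nanos2*-/- genotypes. The study's t-test passed 1 member probe, *Rec8*, in *Nanos2*-/- Tg+ against *Nanos2*+/- gonads. The sign of *Stra8* was the same under every alternative in all 3 comparisons, with ranges of 1.47 to 2.93, 2.21 to 3.68 and 0.09 to 1.53, and the lowest adjusted p was 0.0602. Counting every member, comparison and alternative apart, 22 results changed sign, most of them small ones, against 439 labelled the same and 1 stronger. With each array left out in turn, the remaining array being taken to vary like the other genotypes, the differences in *Nanos2*-/- against *Nanos2*+/- ranged from -0.034 to 0.937 for *Rec8*, -0.11 to 0.20 for *Cyp26b1*, -0.046 to 0.102 for *Rarb*, -0.33 to 0.51 for *Crabp2* and -0.22 to 0.24 for *Aldh1a2*. In *Nanos2*-/- Tg+ against *Nanos2*+/- gonads they ranged from -0.220 to 0.092 for *Cyp26b1*, -0.035 to 0.801 for *Crabp2* and -0.30 to 0.15 for *Aldh1a2*, and between both *Nanos2*-/- genotypes from -0.034 to 0.195 for *Rara* and -0.16 to 0.21 for *Crabp1*. Leaving out the first or the second *Nanos2*+/- array moved the median of all probes to -0.16 and 0.07 in *Nanos2*-/- and to -0.12 and 0.10 in *Nanos2*-/- Tg+ gonads. Normexp moved it to 0.56 and 0.52 and turned *Crabp2* to -0.059 and *Aldh1a1* to 0.84 in *Nanos2*-/-, and *Cyp26b1* to 0.89, *Aldh1a1* to 0.88 and *Aldh1a2* to 0.85 in *Nanos2*-/- Tg+ against *Nanos2*+/- gonads, which relative to that median were -0.62, 0.28, 0.36, 0.36 and 0.33. *Crabp1* between both *Nanos2*-/- genotypes was -0.0013 with scaling to the 75th percentile and -0.034 with normexp. The cause was not tested.

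The differences between both replicates correlated over all probes between pairs of genotypes, at 0.36, 0.31 and 0.26, but nothing in the labels ties arrays of one number together. With a replicate block the adjusted p of *Stra8* was 0.220, 0.0905 and 0.985, that of *Rec8* 0.472, 0.112 and 0.806, the number of member probes called was 0 in each comparison, and the number of all probes called was 18, 145 and 4. With 2 arrays per genotype and the controls on a slide of their own, small differences could not be resolved.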

Other observations

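Markers of the cells a gonad holds were read in the same way as the retinoic acid genes, and none of their genes was called in any comparison. Of 6 germ cell markers 1 was higher and 5 lower in *Nanos2*-/- than in *Nanos2*+/- gonads, with a median log2 difference of -0.10 and *Dnd1*, a germ cell RNA-binding protein, at -0.81 (adjusted p = 0.257). *Dnd1* read 13.54 and 13.76 in *Nanos2*+/-, 12.75 and 12.92 in *Nanos2*-/- and 12.88 and 12.79 in *Nanos2*-/- Tg+ gonads, so that both *Nanos2*+/- arrays were above all others. *Mael* was also lower without overlap in *Nanos2*-/- (14.05 and 14.20) than in *Nanos2*+/- gonads (14.75 and 14.45). In *Nanos2*-/- Tg+ gonads (14.67 and 14.35) *Mael* overlapped with *Nanos2*+/-. *Ddx4*, another germ cell gene, overlapped between *Nanos2*+/- and *Nanos2*-/- gonads. In *Nanos2*-/- Tg+ against *Nanos2*+/- gonads 4 of the 6 germ cell markers were higher and 2 lower, with a median of 0.08. The median of all probes tested there was -0.01. The medians of 7 Sertoli, 4 fetal Leydig, 5 endothelial and 3 macrophage markers in *Nanos2*-/- against *Nanos2*+/- gonads were -0.08, -0.15, -0.15 and -0.25. In the same comparison the median of the 5 mesonephric markers that entered the test was 0.20 and that of the 4 ovarian somatic markers -0.10. All probes tested had a median of -0.04 in *Nanos2*-/- against *Nanos2*+/- gonads, with 44.6% of them higher. In *Nanos2*-/- Tg+ against *Nanos2*-/- gonads all 7 Sertoli markers were higher, with a median of 0.08, and 4 of 5 erythroid genes were higher, with a median of 0.50. Of all probes tested 56.8% were higher in this comparison, with a median of 0.03.

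Among ovarian somatic markers *Rspo1*, a secreted activator of WNT signalling, read 13.12 and 13.92 in *Nanos2*+/-, 13.99 and 14.15 in *Nanos2*-/- and 14.42 and 14.24 in *Nanos2*-/- Tg+ gonads, in an order without overlap between genotypes. *Fst*, an activin-binding protein, had means that ran downwards, 6.54 ± 0.09, 5.97 ± 0.05 and 5.59 ± 0.37 (SD, 2 arrays) for the same genotypes. The differences of *Nanos2*-/- Tg+ from *Nanos2*+/- gonads were 0.81 (adjusted p = 0.310) for *Rspo1* and -0.95 (adjusted p = 0.178) for *Fst*.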
